A study of Mus musculus with 6 samples.

Results

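Leukocytes leave the blood and settle in a tissue by means of a small set of surface proteins. Expression of 9 genes that encode such proteins was examined in adipocytes of aPU.1KO and control mice. They are the alpha chains Itgal (CD11a), Itgam (CD11b) and Itgax (CD11c), their shared beta chain Itgb2 (CD18), the alpha4 chain Itga4 with its partner Itgb7, the counter-receptors Vcam1 and Icam1, and Selplg, which encodes the selectin ligand PSGL-1. The genes were taken by name, with no threshold on their values, but with earlier results of these data known. All 9 were found among the 35122 genes of the deposited count table and passed the filter on low counts. RNA came from the floating adipocyte fraction of epididymal fat pads that had been digested with collagenase. Control mice were PU.1 fl/fl, carrying loxP sites around exon 5 of Spi1, the gene for the transcription factor PU.1, and no Cre. aPU.1KO mice were AdipoqCre_PU.1 fl/fl, with the same floxed alleles and Cre driven by the adiponectin promoter, which is active in adipocytes. The controls were littermates by the paper's account, and which mice shared a litter is not stated. All 6 mice, 3 per group with 1 library each, were males on a C57BL/6 background fed a standard chow diet. Their age was 10 to 11 months in the sample labels and above a year in the paper.

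The model has limits that bear on these genes. Cre driven by adiponectin is not expected in leukocytes, so Spi1 should be intact in any leukocyte that remains in the fraction, and recombination in adipocytes need not be complete. In bulk RNA, fewer cells of a type and less RNA per cell cannot be told apart. Neither can a change in adipocytes be told apart from a change in the cells that float with them. Replicates are separate mice. The total counts were between 20550252 and 69283842 per library, with control mouse 1 the deepest by a wide margin, and the counts of the 9 genes in single libraries were between 13 and 10086. In the aPU.1KO fractions the summed level of 8 adipocyte markers was 31635 to 35907 CPM (counts scaled to library size), against 25713 to 28046 CPM in the control fractions. By the mean over all 6 mice, Fabp4 was the highest of these markers and Pck1 the lowest. Spi1 itself was at 24.3, 6.35 and 26.7 CPM in control mice 1 to 3 and at 3.20, 1.22 and 4.17 CPM in aPU.1KO mice 1 to 3 (log2 fold change -2.75, SE 0.64, edgeR adjusted p = 0.0788). These counts cover the whole gene and not exon 5 alone.

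An integrin is a pair of an alpha and a beta chain, and neither chain reaches the cell surface efficiently alone. CD18 pairs with CD11a to form LFA-1, with CD11b to form Mac-1 and with CD11c to form the integrin known as p150,95. These CD18 integrins are restricted to leukocytes, LFA-1 to nearly all of them and Mac-1 and CD11c mostly to myeloid cells. The alpha4 chain pairs with beta1 (Itgb1) or with beta7. In the adhesion cascade, PSGL-1 on the leukocyte catches selectins on the vessel wall and lets the cell roll. Activated integrins then hold it, CD18 integrins on ICAM-1 and alpha4 integrins on VCAM-1 or, for alpha4 with beta7, on MAdCAM-1. In obese fat, CD11c is widely used as a marker of macrophages that gather around dying adipocytes. PU.1 is a master regulator of myeloid cells, and it is known to bind purine-rich sites with a GGAA core in promoters of myeloid genes, the CD11b promoter among them.

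The genes lie on 7 chromosomes in the GRCm38 assembly (GENCODE M21 annotation). On chromosome 7, plus strand, are Itgal (ENSMUSG00000030830, 127296260 to 127335138), Itgam (ENSMUSG00000030786, 128062640 to 128118491) and Itgax (ENSMUSG00000030789, 128129547 to 128150657), the last a close neighbour of Itgam. Itgb2 (ENSMUSG00000000290) is on chromosome 10 from 77530252 to 77565708, Itga4 (ENSMUSG00000027009) on chromosome 2 from 79255426 to 79333123 and Icam1 (ENSMUSG00000037405) on chromosome 9 from 21015985 to 21028817, all on the plus strand. On the minus strand are Itgb7 (ENSMUSG00000001281, chromosome 15, 102215995 to 102231944), Vcam1 (ENSMUSG00000027962, chromosome 3, 116109949 to 116129688) and Selplg (ENSMUSG00000048163, chromosome 5, 113818536 to 113832644).

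RefSeq promoter sequence (GRCm38.p6) was at hand for 5 of the 9 genes: Itgam, Itgax, Itga4, Itgb7 and Icam1. The sequences of 3 of them are shown, the 250 bases before the start site read 5′ to 3′ on the gene's strand. Itgam and Itgax are neighbours with large differences between the groups, and Icam1 is the gene whose groups overlapped. Capitals mark a purine-rich PU box (GAGGAA, or TTCCTC where it lies on the other strand), a GC box (GGGCGG, or CCGCCC on the other strand) and an NF-kB element (GGAAATTCC), the last of which contains the same GGAA core as the PU box.
Itgam, chr7:128062390-128062639, plus strand: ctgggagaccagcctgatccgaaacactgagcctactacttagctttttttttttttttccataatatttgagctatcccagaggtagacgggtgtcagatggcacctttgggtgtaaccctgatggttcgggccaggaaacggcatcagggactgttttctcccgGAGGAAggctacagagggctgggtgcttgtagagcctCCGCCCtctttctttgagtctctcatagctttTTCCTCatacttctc
Itgax, chr7:128129300-128129549, plus strand: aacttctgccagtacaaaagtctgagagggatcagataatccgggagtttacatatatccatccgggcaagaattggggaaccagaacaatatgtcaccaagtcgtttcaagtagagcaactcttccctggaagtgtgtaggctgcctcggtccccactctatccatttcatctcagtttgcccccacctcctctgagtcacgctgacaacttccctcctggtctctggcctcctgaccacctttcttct
Icam1, chr9:21015690-21015939, plus strand: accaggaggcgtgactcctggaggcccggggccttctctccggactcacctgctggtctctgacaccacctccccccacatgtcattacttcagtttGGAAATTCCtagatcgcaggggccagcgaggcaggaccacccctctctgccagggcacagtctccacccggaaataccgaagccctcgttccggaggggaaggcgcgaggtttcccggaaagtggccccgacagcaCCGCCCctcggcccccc

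The search covered both strands from 250 bases before to 50 bases after each start site, a window of 300 bases. Itgam held 3 PU boxes, at 84 and 15 bases before its start and 33 bases after it, and a GC box 47 bases before it. Icam1 held no PU box but an NF-kB element 153 bases before its start, a TATA box (TATAAA) 14 bases after it and GC boxes 17 bases before and 24 bases after it. Itgb7 had a PU box 3 bases after its start, Itga4 had a GC box 114 bases before its start, and none of the 4 motifs was found in the Itgax window. Among 32851 RefSeq windows of the same length, 28.3% held the PU box, 0.317% the NF-kB element, 13.6% the TATA box and 35.7% the GC box. A match describes these letters only and does not show that a factor binds there. Only the exact letters of each motif were sought, so other sites with a GGAA core are missed. The Itgam, Itgax and Icam1 sequences shown all hold GGAA outside any marked stretch.

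The alpha chains that pair with CD18 were low in the aPU.1KO fractions. Itgam stood at 57.1, 14.5 and 47.0 CPM in control mice 1 to 3 and at 7.42, 5.06 and 9.95 CPM in aPU.1KO mice 1 to 3. Control mouse 2 was far below the other controls, yet the groups did not overlap, and its level was 1.46 times that of the highest aPU.1KO mouse. The mean of Itgam was 39.5 ± 22.3 CPM in controls and 7.48 ± 2.44 CPM in aPU.1KO mice (SD, n = 3 each), with a log2 fold change of -2.41 (SE 0.52, edgeR quasi-likelihood test adjusted p = 0.0783, DESeq2 adjusted p = 2.14e-05).

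Itgax, whose product marks dendritic cells and tissue macrophages, was at 77.7, 13.9 and 70.4 CPM in the control mice and at 10.5, 1.99 and 10.2 CPM in the aPU.1KO mice. In each group, mouse 2 was 5-fold or more below the highest mouse (5.58-fold in controls and 5.29-fold in aPU.1KO mice), and the groups still did not overlap. The log2 fold change of Itgax was -2.85 (SE 0.79, edgeR adjusted p = 0.0994, DESeq2 adjusted p = 0.0279), with means of 54.0 ± 34.9 and 7.56 ± 4.83 CPM, a ratio of 7.19.

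Itgal, the alpha chain of LFA-1 and the chain that lymphocytes use most, was weakly expressed. It was at 4.27, 2.45 and 3.69 CPM in control mice and 0.813, 1.67 and 1.33 CPM in aPU.1KO mice, so the groups were separate and aPU.1KO mouse 2 was the highest of its group. The mean went from 3.47 ± 0.928 to 1.27 ± 0.432 CPM, and the log2 fold change was -1.45 (SE 0.34, edgeR adjusted p = 0.0808, DESeq2 adjusted p = 0.00376).

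Itgb2, the chain that all 3 need, stood at 139, 26 and 131 CPM in control mice and at 20.3, 5.02 and 18.3 CPM in aPU.1KO mice. Mouse 2 was again the low mouse of each group, and the lowest control was 1.28 times the highest aPU.1KO mouse. The mean was 98.7 ± 63.1 CPM in control mice and 14.5 ± 8.30 CPM in aPU.1KO mice. The log2 fold change was -2.77 (SE 0.74, edgeR adjusted p = 0.0941, DESeq2 adjusted p = 0.0188).

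The alpha4 integrin genes were lower as well. Itga4 was at 21.1, 7.40 and 16.0 CPM in control mice and at 4.42, 3.80 and 4.59 CPM in aPU.1KO mice. The aPU.1KO mice were tightly grouped, 1.21-fold from lowest to highest, and all lay below the lowest control. The log2 fold change of Itga4 was -1.80 (SE 0.37, edgeR adjusted p = 0.0764, DESeq2 adjusted p = 8.41e-05).

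Itgb7, which pairs with alpha4 for homing to mucosal vessels, was at 4.43, 1.93 and 3.93 CPM in control mice and at 1.02, 0.588 and 0.995 CPM in aPU.1KO mice. The groups were separate, the lowest control being 1.89 times the highest aPU.1KO mouse. Its log2 fold change was -2.0 (SE 0.40, edgeR adjusted p = 0.0764, DESeq2 adjusted p = 0.000419). These values rest on few reads, 13 to 21 counts in the aPU.1KO libraries.

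Selplg, the rolling ligand, was at 21.3, 7.22 and 20.2 CPM in control mice and at 3.20, 1.76 and 3.51 CPM in aPU.1KO mice. Its groups stood farthest apart of the 9 genes, with the lowest control 2.06 times the highest aPU.1KO mouse, and it had the smallest p of the 9 in the edgeR test. The mean was 16.2 ± 7.83 CPM in control mice and 2.82 ± 0.931 CPM in aPU.1KO mice. The log2 fold change was -2.53 (SE 0.47, edgeR adjusted p = 0.0724, DESeq2 adjusted p = 2.47e-06).

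Vcam1 and Icam1 encode the counter-receptors of these integrins. Vcam1, the ligand of alpha4 integrins, which endothelium and also some macrophages and stromal cells make, was at 43.7, 19.0 and 50.4 CPM in control mice and at 11.3, 8.5 and 12.9 CPM in aPU.1KO mice. The groups did not overlap, and the log2 fold change was -1.79 (SE 0.36, edgeR adjusted p = 0.0764, DESeq2 adjusted p = 3.84e-05).

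Icam1, the ligand of LFA-1 and Mac-1, induced in many cell types by inflammatory signals, was at 27.1, 18.5 and 29.0 CPM in control mice and at 11.7, 29.6 and 8.90 CPM in aPU.1KO mice. Here the groups overlapped, since aPU.1KO mouse 2 was the highest of all 6 mice while the other aPU.1KO mice were below every control. The log2 fold change was -0.57 (SE 0.44, unadjusted p = 0.237 and adjusted p = 0.451 by edgeR, DESeq2 adjusted p = 0.428). Without aPU.1KO mouse 2 it was -1.28 (SE 0.24, edgeR adjusted p = 0.106), beside -1.65 (SE 0.43) for Vcam1 in the same fit, and without aPU.1KO mouse 3 it was -0.27. The difference between Vcam1 and Icam1 was not tested.

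**Figure D1:**
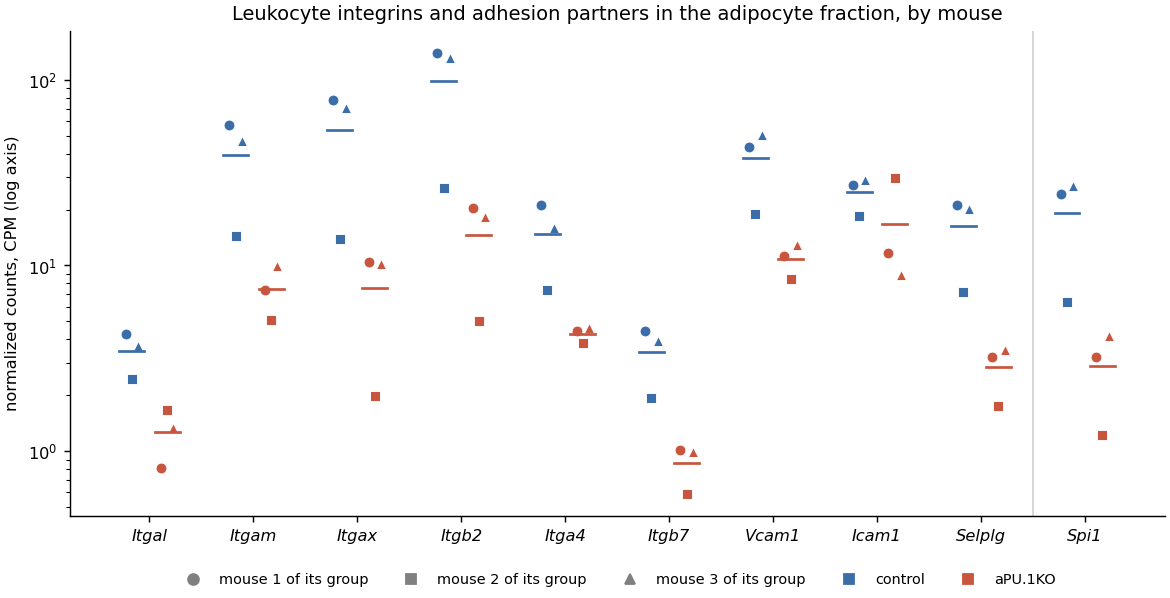
Normalized counts (CPM, log axis) of the 9 genes and, right of the line, of Spi1 in each of the 6 mice. Blue is control, red is aPU.1KO, the symbol gives the mouse of its group and the bar is the group mean. Control mouse 2 (blue squares) is the lowest control for all 9 genes, and Icam1 is the gene whose groups overlap.

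Counted together, all 9 genes had a log2 fold change below 0, with a median of -2.0, while over all 13925 genes tested the median was 0.01. At an adjusted p under 0.05, edgeR called 0 of the 9, and it called 0.237% of all genes. DESeq2 called 8 of the 9 lower, against 7.28% of all genes. At an unadjusted p under 0.05 in the edgeR test, 8 of the 9 were lower (13.7% of all genes were), and the groups did not overlap for the same 8 (15.5% of all genes were lower without overlap). Icam1 was the exception in each of these counts that reached 8. The 9 genes were chosen with earlier results of these data known, so the counts describe them and are not an independent test.

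The edgeR calls turned on single mice. Control mouse 2 had the lowest level of its group for all 9 genes, and without it edgeR called the 8 genes other than Icam1 at an adjusted p under 0.05, against 8.34% of all genes in that fit. Without control mouse 1, adjusted p was 0.313 or more for each of the 9, although 8 were lower at an unadjusted p under 0.05, against 8.1% of all genes in that fit. The direction did not turn when any mouse was left out. The log2 fold change of Itgb2 then ranged from -3.23 to -2.37, that of Itga4 from -2.13 to -1.47 and that of Itgal from -1.71 to -1.23.

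**Figure D2:**
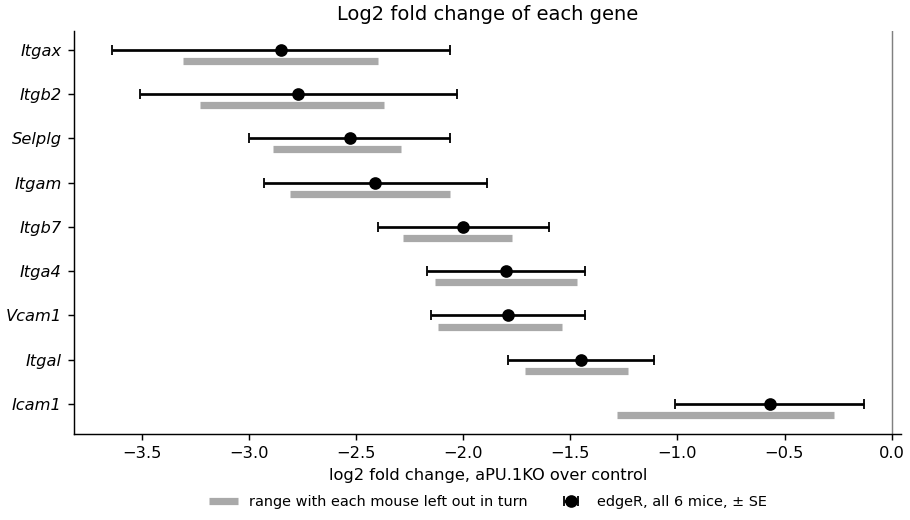
Log2 fold change of each gene, aPU.1KO over control, from edgeR with all 6 mice (points, with SE bars), and the range of that value with each mouse left out in turn (grey bars). Itgax (-2.85) and Itgb2 (-2.77) are at the low end and Icam1 (-0.57) is nearest to 0, and no range crosses 0.

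Levels were compared between genes per length of the gene's joined exons, in CPM per kb. In control mice Itgb2 led at 32.3 ± 20.7, followed by Itgax at 11.2 ± 7.27, Itgam at 7.87 ± 4.43, Icam1 at 5.71 ± 1.28, Vcam1 at 4.25 ± 1.86 and Selplg at 3.80 ± 1.83 CPM per kb. Itgb7, at 1.24 ± 0.479, Itga4, at 1.06 ± 0.494, and Itgal, at 0.528 ± 0.141 CPM per kb, formed the low end. The ranges of neighbours in this order overlapped, except that every control mouse had more Selplg than any had Itgb7. Within each of the 3 control mice, though, Itgb2 was above Itgax and Itgax above Itgam.

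In aPU.1KO mice the order of mean levels was Itgb2 (4.76 ± 2.72 CPM per kb), Icam1 (3.83 ± 2.57), Itgax (1.57 ± 1.01), Itgam (1.49 ± 0.486), Vcam1 (1.23 ± 0.250), Selplg (0.661 ± 0.218), Itgb7 (0.313 ± 0.0872), Itga4 (0.306 ± 0.0300) and Itgal (0.193 ± 0.0658). Icam1 moved up from rank 4 to rank 2, and the ranges were separate only between Vcam1 and Selplg, between Selplg and Itgb7 and between Itga4 and Itgal. With the length of the longest transcript in place of all exons, the level of Icam1 in aPU.1KO mice was 6.60 CPM per kb and led the order, ahead of Itgb2 at 4.89, so the rank of the leading pair depends on the length used. In the same mice Vcam1 was at rank 3 (2.66 CPM per kb), Itgax and Itgam went to ranks 4 and 5, and Itga4 was above Itgb7. In control mice that length put Icam1 at rank 3 (9.82 CPM per kb), Vcam1 at rank 4 (9.22) and Itgam at rank 5 (8.44), placed Itga4 above Itgb7, and moved Selplg to 7.02 CPM per kb at the same rank.

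The make-up of the CD18 family was compared within each mouse. Of the summed CPM per kb of Itgal, Itgam and Itgax, Itgax held 57.4%, 47.1% and 59.7% in control mice 1 to 3 and 57.8%, 24.7% and 49.3% in aPU.1KO mice 1 to 3. Itgam held 40.3%, 46.9% and 38.1% in control mice and 39.0%, 60.1% and 46.0% in aPU.1KO mice. Mouse 2 of each group had the highest share of Itgam and the lowest of Itgax, and the groups overlapped for both. Itgal held the rest, 2.28% to 6.06% in control mice and 3.27% to 15.2% in aPU.1KO mice. These 3 alpha chains together came to 0.572 to 0.722 of the Itgb2 level in control mice and 0.571 to 1.02 in aPU.1KO mice, again with overlap. A further CD18 partner, Itgad (CD11d), is not counted in these shares. With it added, a choice made after seeing the data, Itgad held 9.49%, 5.93% and 17.4% in control mice and 10.9%, 1.18% and 6.61% in aPU.1KO mice, more than Itgal in control mice 1 to 3, and Itgax held 44.3% to 51.9% and 24.4% to 51.5%. All 4 shares and the sum over Itgb2 overlapped between the groups.

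**Figure D3:**
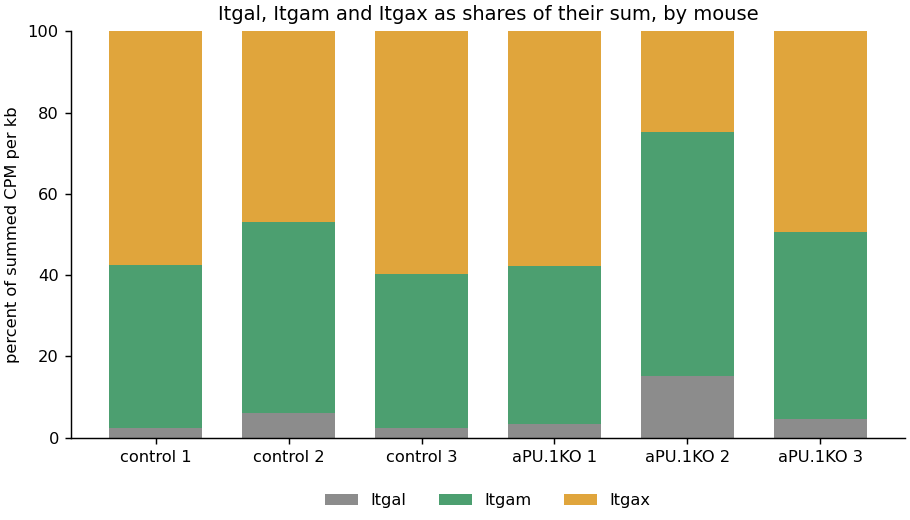
Share of Itgal, Itgam and Itgax in their summed level (percent of CPM per kb, vertical axis) in each mouse. In aPU.1KO mouse 2 Itgax holds 24.7% and Itgam 60.1%, whereas in the other 5 mice Itgax holds between 47.1% and 59.7%.

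The ratio of ligand to receptor was narrow for the alpha4 pair, and the groups overlapped. Vcam1 was 3.27, 4.06 and 4.97 times Itga4, per kb, in control mice and 4.02, 3.53 and 4.42 times in aPU.1KO mice. Itga4 was 0.761 to 0.942 of Itgb7 in control mice and 0.862 to 1.28 in aPU.1KO mice. For the CD18 pair the ratios were wide. Itgb2 was 7.32, 2.01 and 6.46 times Icam1, per kb, in control mice and 2.48, 0.242 and 2.93 times in aPU.1KO mice. The values of control mouse 2 lay inside the aPU.1KO range, so these groups overlapped too. The size of such ratios depends on the length used, which scales all mice alike and leaves the overlap as it is. With the longest transcript, control means were 9.22 CPM per kb for Vcam1 and 1.52 for Itga4, and 33.2 for Itgb2 and 9.82 for Icam1.

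Macrophage markers moved with the 9 genes. Of 14 macrophage markers, 13 were tested, with a median log2 fold change of -1.92. At an unadjusted p under 0.05 by edgeR, 10 of the markers were lower in aPU.1KO mice (13.7% of all genes were) and none was higher. Their summed level was 1481, 487 and 1428 CPM in control mice and 339, 270 and 319 CPM in aPU.1KO mice, with control mouse 2 the low control as it was for the 9 genes. Lyz2, a secreted lysozyme, was the highest of the list and Timd4 the lowest, and edgeR called Mrc1, the mannose receptor (log2 fold change -1.70, SE 0.19, adjusted p = 0.0389). The call of Mrc1 was lost in 5 of the 6 fits that left out a mouse (adjusted p 0.0781 to 0.184), with log2 fold changes of -1.87 to -1.49 over the 6. It was also lost with at least 10 counts required in every library (adjusted p = 0.0747) and with the macrophage covariate (-0.76, SE 0.19, adjusted p = 1). Cd14, Mertk, Cd163, Lyve1 and Timd4 overlapped between the groups, and the log2 fold changes of Mertk (0.06, SE 0.17) and Cd163 (0.29, SE 0.63) were above 0. No marker of the list was at or under 3 counts in every library.

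Set against that sum, 8 of the 9 genes overlapped between the groups. The sum was lower in every aPU.1KO library, so this scaling raises all genes there, and 0.797% of all genes tested were lower without overlap. Per 1000 CPM of the macrophage list, Vcam1 was 29.5 to 39.1 CPM in control mice and 31.5 to 40.4 in aPU.1KO mice, and Itga4 was 11.2 to 15.2 and 13.0 to 14.4. Itgb2 was 53.4 to 93.8 in control mice and 18.6 to 59.8 in aPU.1KO mice, Itgax 28.6 to 52.5 and 7.37 to 32.0, and Itgam 29.7 to 38.6 and 18.8 to 31.2, each with overlap. Itgal was 2.58 to 5.03 and 2.40 to 6.20, Itgb7 2.75 to 3.95 and 2.18 to 3.12, and Icam1 18.3 to 38.0 and 28.0 to 110. Selplg alone of the 9 did not overlap, at 14.4, 14.8 and 14.1 CPM per 1000 CPM in control mice and 9.45, 6.53 and 11.0 in aPU.1KO mice. Lyz2 made up 42.2% of the control sum. Without it Selplg (21.0 to 26.1 against 8.49 to 16.3) and also Itgb7 (5.07 to 5.59 against 2.83 to 4.97) did not overlap, against 0.819% of all genes.

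**Figure D4:**
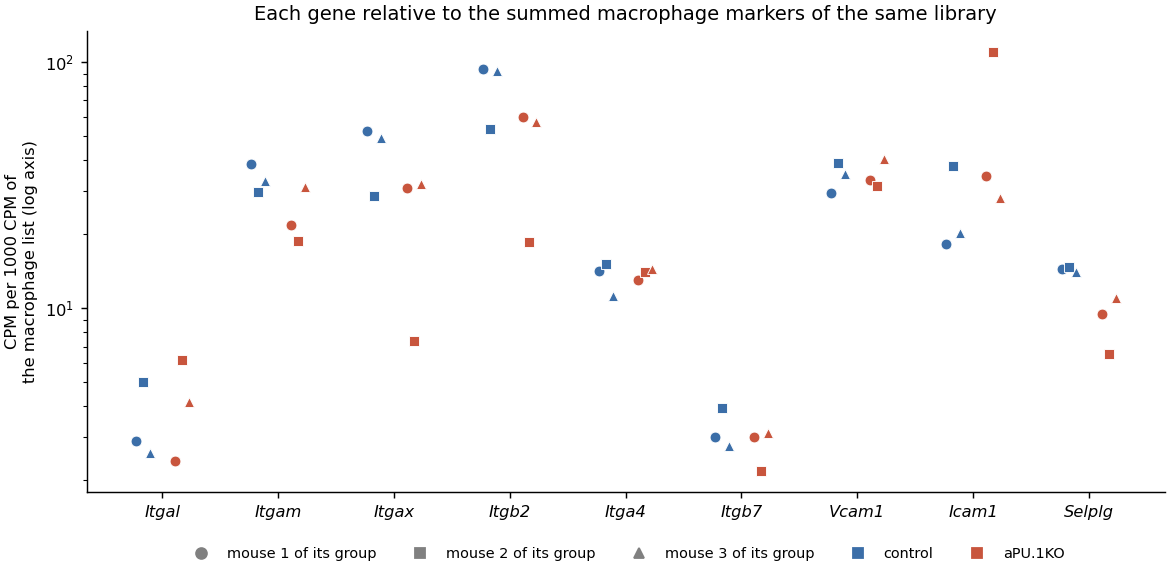
Level of each gene per 1000 CPM of summed macrophage markers in the same library (log axis), for 3 control mice (blue) and 3 aPU.1KO mice (red), with the symbol giving the mouse of its group. Selplg is the gene whose groups do not overlap, and Vcam1 and Itga4 lie at like heights in both groups.

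With the mean log2 level of the macrophage markers as a covariate in the edgeR fit, 0 of the 9 genes had an unadjusted p under 0.05, and 1.08% of all genes did, so the count does not set the 9 apart. That level, centred over the libraries, was 0.063 to 1.259 in control mice and -0.826 to -0.674 in aPU.1KO mice, so that the covariate separates the groups by itself. The log2 fold changes were then between -0.54 (Itgal, SE 0.74) and 0.87 (Itgax, SE 1.15). Fewer macrophages and lower levels per macrophage cannot be told apart here.

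Markers of other leukocytes were low in these fractions. T cell markers (Cd2 the highest, Cd5 the lowest) summed to 3.90 to 7.50 CPM in control mice and 2.64 to 2.70 CPM in aPU.1KO mice, with 2 of 4 tested genes lower at an unadjusted p under 0.05. B cell markers (Cd22, Pax5) summed to 3.59 to 7.42 and 1.90 to 4.78 CPM, and NK cell markers (Nkg7, Ncr1) to 0.263 to 1.87 and 0.407 to 0.508 CPM, none of them tested. Neutrophil markers (S100a8, Retnlg) summed to 19.4 to 39.3 and 12.0 to 19.1 CPM, with 2 of 3 tested genes lower, 1 (Elane) higher, and Ly6g, Retnlg and Ngp at or under 3 counts in every library. Dendritic cell markers (Zbtb46, Xcr1) summed to 17.4 to 21.6 and 14.1 to 18.9 CPM, and mast cell markers (Kit, Fcer1a) to 18.2 to 21.9 and 8.43 to 15.0 CPM. A single gene made up most of each of the neutrophil, dendritic cell and mast cell sums. In control mice S100a8 was at 17.5 to 35.2 CPM, Zbtb46 at 14.5 to 17.4 CPM and Kit at 11.7 to 16.4 CPM. Of the mast cell markers, 3 of 3 tested by edgeR were lower at an unadjusted p under 0.05, with a median log2 fold change of -1.98, and the groups overlapped for each of these 3. DESeq2, which tests genes of lower counts, called 1 mast cell marker lower after adjustment (Tpsb2, log2 fold change -2.60, adjusted p = 0.0119), and Tpsb2 and Fcer1a did not overlap. Of the B cell markers 1 of 4 tested was lower at the unadjusted threshold, and of the dendritic cell markers 1 of 5. All tested genes of both lists had a log2 fold change below 0, with medians of -0.78 and -0.52.

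Counts of lower genes in this paragraph are at an unadjusted p under 0.05 by edgeR, as 13.7% of all genes were. Among cells that bear the counter-receptors, 1 of 9 endothelial markers (Kdr, Emcn) was lower at that threshold. All 9 had a log2 fold change below 0, with a median of -0.44. The endothelial markers summed to 438 to 623 CPM in control mice and 258 to 590 CPM in aPU.1KO mice. The highest aPU.1KO value was that of mouse 2, which also had the highest Icam1. In control mice the highest endothelial sum was in mouse 2, which had the lowest Icam1 of its group. Progenitor and fibroblast markers (Col3a1, Pi16) summed to 1574 to 2328 and 911 to 1253 CPM with 6 of 9 lower, pericyte and smooth muscle markers (Rgs5, Tagln) to 474 to 731 and 385 to 513 CPM with 4 of 7 lower, and mesothelial markers (Upk3b, Krt8) to 5.08 to 18.5 and 6.76 to 9.09 CPM with 0 of 6 lower. All tested genes of these lists had a log2 fold change below 0, with medians of -0.91, -0.68 and -0.45. Hepatocyte markers (Hp, Ambp) were lower for 8 of 8 tested genes, and without Hp, 98.9% of their sum, they came to 41.2 to 64.3 CPM in control mice and 18.9 to 24.7 CPM in aPU.1KO mice. Of the 8 adipocyte markers, 6 were higher (11.9% of all genes were, at an unadjusted p under 0.05) and Lep was lower. The part of these other cells in the levels of the 9 genes was not tested.

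Genes whose pattern over the 6 libraries was most like that of Itgb2 were sought among all tested genes, by the root mean square difference of log2 CPM centred on each gene's mean. The 5 nearest outside the 9 were Cd300lb (0.0523), an activating receptor of myeloid cells, Ctss (0.0924), the lysosomal protease cathepsin S, Myo1f (0.126), an unconventional myosin of leukocytes, Slamf7 (0.149), a receptor of the SLAM family, and Slc37a2 (0.154), a transporter. Their log2 fold changes were between -2.88 and -2.63. Among the 9 themselves, Itgax was the nearest to Itgb2, at 0.162 and rank 9 of 13924 genes, followed by Selplg (rank 81), Itgam (99), Itgb7 (211), Vcam1 (269) and Itga4 (337). Itgal (1007) and Icam1 (4381) were the least like it.

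Genes that act with the 9 were grouped by role in 6 lists. Of 62 genes listed, 61 were in the table and 54 were tested. At an unadjusted p under 0.05 by edgeR, 26 of the 54 were lower (13.7% of all genes were) and 1 was higher (11.9% of all genes). At an adjusted p under 0.05, edgeR called 1 (Fgg), against 0.237% of all genes. DESeq2 called 19 lower (7.28% of all genes) and 1 higher (3.38% of all genes). Counts of lower or higher genes given below for each list are at the unadjusted threshold. The median log2 fold change was -0.57, so this wider set lay closer to 0 than the 9 genes.

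Other integrin subunits of leukocytes were mixed, with 3 of 6 lower. Itga5, the fibronectin receptor chain, was at 37.1, 27.2 and 33.1 CPM in control mice and 13.0, 16.1 and 19.5 CPM in aPU.1KO mice (log2 fold change -1.01, SE 0.18, edgeR adjusted p = 0.0724, DESeq2 adjusted p = 6.5e-05). Itga9 had a log2 fold change of -1.36 (SE 0.25, edgeR adjusted p = 0.0724). Itgb1, the alternative partner of the alpha4 chain and present in nearly all cells, was at 566, 601 and 509 CPM in control mice and 518, 393 and 501 CPM in aPU.1KO mice, with overlap. Itgad, the CD11d chain, was at 13.3, 1.75 and 23.3 CPM in control mice and at 2.08, 0.0904 and 1.37 CPM in aPU.1KO mice. It was the third of the lower genes by unadjusted p, with a log2 fold change of -3.45 (SE 1.08, unadjusted p = 0.0159, edgeR adjusted p = 0.116, DESeq2 adjusted p = 0.0684), but control mouse 2 was below aPU.1KO mouse 1. Itgae, which pairs with beta7 on resident T cells, had a log2 fold change of 0.71 (SE 0.39, unadjusted p = 0.113).

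Genes that switch integrins on or hold them in check were lower for 6 of 14 tested, with a median of -0.43. The list includes Sharpin and Flna, which restrain integrin activation, and neither had an unadjusted p under 0.05. Fermt3, kindlin-3, which leukocyte integrins need for activation, was at 22.0, 7.05 and 24.2 CPM in control mice and 4.57, 1.81 and 3.65 CPM in aPU.1KO mice (log2 fold change -2.42, SE 0.53, edgeR adjusted p = 0.0783, DESeq2 adjusted p = 6.32e-05). Fyb, the adaptor ADAP, had a log2 fold change of -2.54 (SE 0.56) and Cytip, a cytohesin-binding protein that restrains leukocyte adhesion, of -1.78 (SE 0.30). Talin-1 (Tln1), used by all integrins, differed little in size, from 415 ± 24.5 to 296 ± 47.4 CPM (log2 fold change -0.49, SE 0.13, DESeq2 adjusted p = 0.0142). Rap1a, the GTPase upstream of talin, was at 97.4 to 102 CPM in control mice and 100 to 110 CPM in aPU.1KO mice. The related Rap1b was at 148 to 189 and 135 to 146 CPM, without overlap (log2 fold change -0.31, SE 0.11, edgeR unadjusted p = 0.0256, adjusted p = 0.141). Skap1, an adaptor of T cells, had too few counts to be tested.

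The soluble and matrix ligands were lower for 8 of 8, with a median log2 fold change of -2.41, also with Fgb set at its bound. Fn1, fibronectin, a ligand of alpha4 and alpha5 integrins, was at 183, 137 and 102 CPM in control mice and 44.4, 36.5 and 50.3 CPM in aPU.1KO mice (log2 fold change -1.69, SE 0.23, edgeR adjusted p = 0.0627, DESeq2 adjusted p = 6.19e-10). Emilin1, a matrix ligand of alpha4, had a log2 fold change of -1.14 (SE 0.22). The fibrinogen genes, liver products that Mac-1 binds, were near the limit of counting. Fgb had 146 counts over the control libraries and 0 over the aPU.1KO libraries, at least 8.72-fold lower against a floor of 3 counts per library. Fgg had 105 and 6 counts, with 2 in each aPU.1KO library, and was at least 6.01-fold lower against the same floor. Its ratio by counts was 9.12 (95% exact interval 4.05 to 25.4, which covers counting error only), and edgeR called it (adjusted p = 0.0457). That call was lost in 5 of the 6 fits that left out a mouse (adjusted p 0.0781 to 0.313) and with the macrophage covariate (adjusted p = 1), while its log2 fold change, -3.12 with all mice, was -3.18 to -3.09 in the fits that left out a mouse and -3.01 (SE 0.81) with the covariate. Hepatocyte markers were lower in the same libraries, as given above.

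Of the other counter-receptors and junction molecules, 2 of 9 tested were lower, beside 13.7% of all genes. Ackr1, a chemokine-binding receptor of venules, had a log2 fold change of -1.44 (SE 0.41, edgeR adjusted p = 0.102, DESeq2 adjusted p = 0.0499) at 0.332 to 1.72 CPM over all mice. Icam2, which endothelium carries without induction, was at 7.50 to 8.89 CPM in control mice and 4.68 to 7.59 CPM in aPU.1KO mice. Pecam1, at 109 to 155 and 66.6 to 129 CPM, overlapped as well. Madcam1, the mucosal ligand of alpha4 with beta7, was at or under 3 counts in every library.

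Selectins and the genes that build their glycan ligands had 4 of 14 tested genes lower and 1 higher. Selp, P-selectin, the main partner of PSGL-1, was at 5.21 to 6.50 CPM in control mice and 0.995 to 4.75 CPM in aPU.1KO mice (log2 fold change -1.09, SE 0.49, unadjusted p = 0.0648). Gcnt1, which builds the branched glycan core that PSGL-1 carries, had a log2 fold change of -2.06 (SE 0.51, edgeR adjusted p = 0.0856, DESeq2 adjusted p = 0.00123). Cd44, an E-selectin and hyaluronan receptor, went from 66.1 ± 29.2 to 16.6 ± 8.08 CPM, and Cd34, a sialomucin of progenitors and endothelium, from 54.8 ± 3.92 to 27.5 ± 9.32 CPM. St3gal4, a sialyltransferase that serves selectin ligands, ran the other way, at 20.8, 25.1 and 17.1 CPM in control mice and 33.5, 40.1 and 28.6 CPM in aPU.1KO mice (log2 fold change 0.70, SE 0.18, edgeR adjusted p = 0.0892, DESeq2 adjusted p = 0.0122). Every aPU.1KO mouse was above every control mouse. Glycam1 had no count in any library.

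The 3 sheddases, proteases that cut adhesion molecules from the cell surface, were all lower at an unadjusted p under 0.05. Adam8, a myeloid sheddase, was at 64.1, 11.9 and 60.9 CPM in control mice and 8.03, 0.452 and 7.20 CPM in aPU.1KO mice, with a log2 fold change of -3.14 (SE 0.94, edgeR adjusted p = 0.109, DESeq2 adjusted p = 0.0605). Adam10 and Adam17, which most cells make, had log2 fold changes of -0.33 (SE 0.09) and -0.55 (SE 0.17), and their groups did not overlap either.

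**Figure D5:**
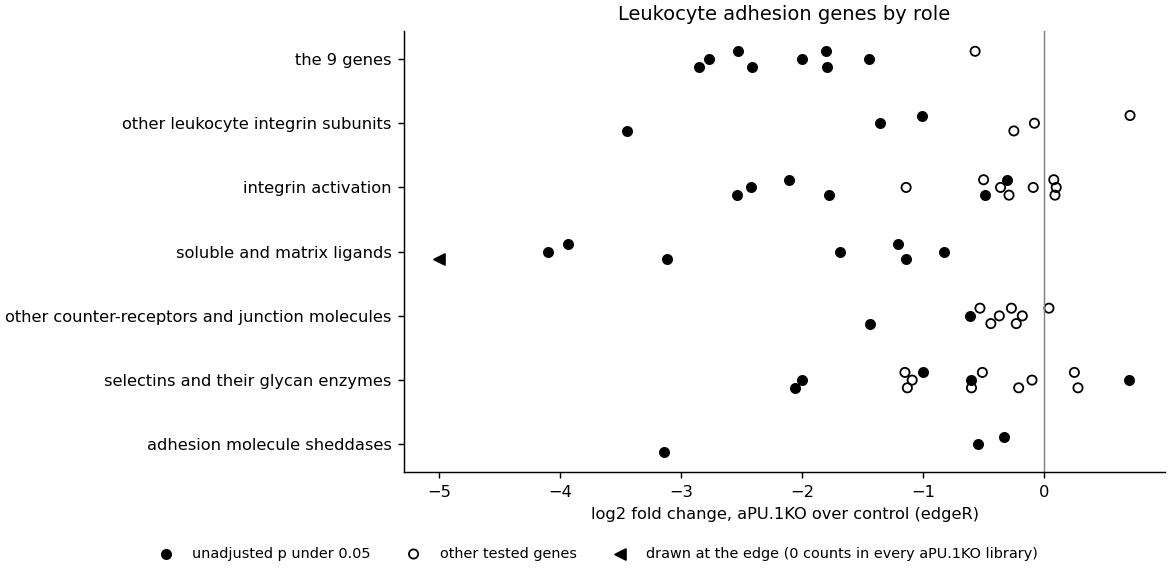
Log2 fold change, aPU.1KO over control, of every tested gene in the 9 genes and in each of 6 lists of related genes. Filled points have an unadjusted p under 0.05, and the triangle at the left edge is Fgb, which had 0 counts in every aPU.1KO library. The 9 genes lie at or below -0.57, and St3gal4 (0.70) is the filled point right of 0.

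Some of the 9 genes share sequence or position with others, which could move reads between them. Itgam shares 3450 bases of exon on the same strand with Gm49368, but Gm49368 had 15 counts over all libraries against 6130 for Itgam. Itgax and Itgad transcripts are 94.987% identical over 758 bases, and Itgad had 1667 counts against 8204 for Itgax, so how reads were split between them is uncertain. Itga4 overlaps Cerkl on the other strand by 1124 bases, with 181 counts for Cerkl against 2370 for Itga4, and Vcam1 and Icam1 overlap antisense genes by 61 and 511 bases. Reads of overlapping genes on opposite strands cannot be told apart unless strand was used, which is not given in the sources used here.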

How the data were processed

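Adipocyte fractions of 3 mice per group gave 1 library each. The authors quantified reads with Salmon (GRCm38, per the submitters' processing notes), and deposited unnormalized estimated counts per gene as whole numbers. Salmon's version and the annotation are not given in the sources used here. Of 35122 Ensembl genes, 35031 were matched to a symbol (GENCODE M21), and the unmatched genes held 0.0367% of counts. No 2 libraries of a group were duplicates, by a chi-square test of their counts. Library totals were 20550252 to 69283842, and low counts limit precision for Itgal and Itgb7.

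Groups were compared with edgeR 4.0.16 in R 4.3.3 (filterByExpr, TMM factors, glmQLFit and glmQLFTest with defaults, Benjamini-Hochberg adjustment over 13925 genes). SE was the log2 fold change divided by the square root of F. CPM used TMM-scaled library sizes, and no pseudocount. DESeq2 1.42.0 and limma-voom (limma 3.58.1), other scalings and filters, robust and legacy = FALSE fits, leaving out each mouse, and a macrophage score as covariate were alternatives. The fits were tested on simulated counts, and BLAST 2.17.0 found like transcripts.

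The members, the gene lists, the tests and the alternatives were chosen with earlier results of these data known, and the macrophage sum without Lyz2 and the CD18 shares with Itgad were added after seeing the data. Named were the members, Spi1, up to 4 genes per role list with the smallest edgeR p (under 0.05, groups not overlapping), the 5 genes nearest to Itgb2, and the highest and lowest marker of each cell type. Rap1a, Rap1b, Sharpin, Flna, Icam2, Pecam1, Selp, Itgb1, Itgad, Itgae, Skap1, Madcam1, Glycam1, Mrc1, Cd14, Mertk, Cd163, Lyve1, Ly6g, Ngp, Elane, Tpsb2, Lep and Hp were named after their values were seen. The macrophage score was the mean log2 CPM of the tested markers. Promoters of Itgal, Itgb2, Vcam1 and Selplg were not analysed here.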

Additional observations from a re-analysis of the deposited data

How the results depend on the processing

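No paired fit was made, because no label states which mice shared a litter, batch or replicate number. The edgeR count of 33 genes at an adjusted p under 0.05 was within 1.5 times of that with RLE or upper quartile factors, limma-voom, robust dispersion and legacy = FALSE. It was 5 with at least 10 counts required in every library, 146 with no filter, 1805 with DESeq2 and 0 with the macrophage score as covariate (151 genes at an unadjusted p under 0.05). With each mouse left out it ranged from 0, without control mouse 1 (1718 genes at an unadjusted p under 0.05), to 1193, without control mouse 2. The cause was not tested.

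Of the 9 genes, edgeR called 0, against 0.237% of all genes. It called 1 (Selplg) with no filter, where 146 of 21529 genes were called. DESeq2 called 8 lower, against 7.28% of all genes. With each mouse left out the edgeR count ranged from 0 to 8, the latter without control mouse 2, where 8.34% of all genes were called. The 8 lower at an unadjusted p under 0.05 (13.7% of all genes were) became 0 with the macrophage score as covariate (1.08% of all genes in either direction). That fit also turned the log2 fold change above 0 for Itgam (0.37), Itgax (0.87), Itgb2 (0.86), Itga4 (0.19), Spi1 (0.18), Fyb (0.42), Fermt3 (0.045), Gcnt1 (0.67), Cd44 (0.082), Adam10 (0.019), Adam8 (0.57), Adam17 (0.26), Cd300lb (0.77), Ctss (0.84), Myo1f (1.08), Slamf7 (0.71) and Slc37a2 (0.56), with adjusted p at 1 for each. In the same fit Fgg was at -3.01, Cd34 at -1.14 and Fn1 at -1.27, also with adjusted p at 1. Of the 9, the genes whose level per macrophage sum did not overlap between groups numbered 1, and 2 without Lyz2, a setting chosen after seeing the data. Of all genes, 0.797% and 0.819% were lower without overlap on these scales. No other alternative reversed a direction.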
